A study of Sus scrofa with 18 samples.

Results

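The regions described here are H3K27ac peaks of cyclic circular muscle for which neither pregnant muscle layer had an H3K27ac peak at the site. They were selected on 2 values: a fold enrichment over the IgG control of at least 4 in CD15M_CM, on chromosomes 1 to 18 and X, and an overlap of not even 1 bp with any H3K27ac peak of GD15M_CM or GD15M_LM. Of the 27200 CD15M_CM peaks of fold enrichment at least 4, 2714 met the rule, which is 9.98%, and 24486 overlapped a pregnant peak. These 2714 cyclic-only regions came from a list of 80992 H3K27ac peaks on these chromosomes, and the H3K27ac lists of all 3 tissues together held 218924 peaks on any sequence.

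CD15M_CM is uterine circular muscle of gilts at day 15 of the oestrous cycle. GD15M_CM and GD15M_LM are the circular and the longitudinal muscle on day 15 of pregnancy. All came from the mesometrial side of Yorkshire gilts, and each tissue was profiled for H3K4me3, H3K27ac and IgG with n = 2 gilts, which gave 12 libraries of the marks and 6 of IgG. Frozen tissue was ground to powder and its nuclei were profiled by CUT&Tag, in which a Tn5 transposase fused to protein A cuts the DNA at antibody-bound sites. Longitudinal muscle of cyclic gilts was not profiled in the samples used here, so a cyclic-only region is one of cyclic circular muscle against both pregnant layers. The gilts of a group were pooled before peaks were called, so the lists used here hold no value per gilt, no difference between tissues was tested here, and the 95% Wilson intervals below cover counting error over peaks only. A site without a peak is a site without a call in that pooled list, not a site shown to lack the mark. In bulk tissue, fewer cells of a type and less acetylation per cell cannot be told apart.

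H3K27ac is an acetylation of histone H3 found at active promoters and active enhancers, and H3K4me3 is a methylation of the same histone concentrated at active promoters. A region with H3K27ac and without H3K4me3, away from gene starts, is commonly read as a candidate enhancer. The circular muscle is the inner layer of the myometrium, and around day 15 the pig uterus either receives implanting conceptuses or, in the cycle, is exposed to the prostaglandin release that ends the corpus luteum.

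Smooth muscle marker genes had H3K27ac peaks in each list. All 9 smooth muscle marker genes, MYH11 and SYNPO2 among them, had an H3K27ac peak of fold enrichment at least 4 in the gene or within 3 kb in each tissue, with highest peaks of 5.16 to 7.59 in CD15M_CM, 4.01 to 7.23 in GD15M_CM and 5.14 to 8.78 in GD15M_LM. Such a peak was found for 5, 7 and 2 of 9 uterine epithelium markers in CD15M_CM, GD15M_CM and GD15M_LM, for 0, 0 and 1 of 5 T cell markers, for 4, 2 and 4 of 6 macrophage and B cell markers, for 3, 2 and 2 of 6 endothelium markers, for 2, 2 and 1 of 3 mesothelium markers, for 5, 3 and 3 of 6 fibroblast and stroma markers, and for 1, 0 and 0 of 3 nerve and glia markers. Each list thus held peaks at markers of several cell types. Such a peak was also frequent in the gene lists described further below. In CD15M_CM it was found for 34 of 38 extracellular matrix genes and 16 of 19 immediate early and AP-1 genes. Of the prostaglandin and oxytocin genes, 11 of 19 had one. The peaks at smooth muscle markers are therefore not particular to smooth muscle genes. An H3K4me3 peak of at least 4 was found for 5 of 5 T cell markers in each tissue. This was not particular to T cell markers. It was also found for 6 of 6 fibroblast and stroma and 5 of 6 endothelium markers in each tissue. Of 9 uterine epithelium markers, 9, 9 and 8 had one in CD15M_CM, GD15M_CM and GD15M_LM. Of 3 nerve and glia markers, 1 had one in each tissue. A peak within 3 kb of a marker may lie at a neighbouring gene. These counts therefore do not show which cell types were present or absent. Peaks of the list of GD15M_LM numbered 56172 on these chromosomes against 78855 for GD15M_CM, and the lists carry no read counts, so the depth behind a single peak cannot be read from them.

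The cyclic-only regions were short, and most lay just above the threshold. Their median length was 378 bp, with a range of 200 to 1930 bp, and their median fold enrichment was 4.27, with a range of 4.0005 to 7.07. The 24486 CD15M_CM peaks shared with a pregnant tissue had a median length of 1230 bp and a median fold enrichment of 4.87. Fold enrichment chose the regions, so these values describe them and are no finding. Of the peaks with a fold enrichment of 4 to 4.5, 19.2% were cyclic-only (1877 of 9764), against 10.4% from 4.5 to 5, 4.02% from 5 to 5.5 and 1.48% from 5.5 to 6. At 6 and over it was 0.351%, which is 17 of 4845 peaks. The median −log10 p was 6.91 in the cyclic-only regions and 11.05 in the shared peaks.

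**Figure D1:**
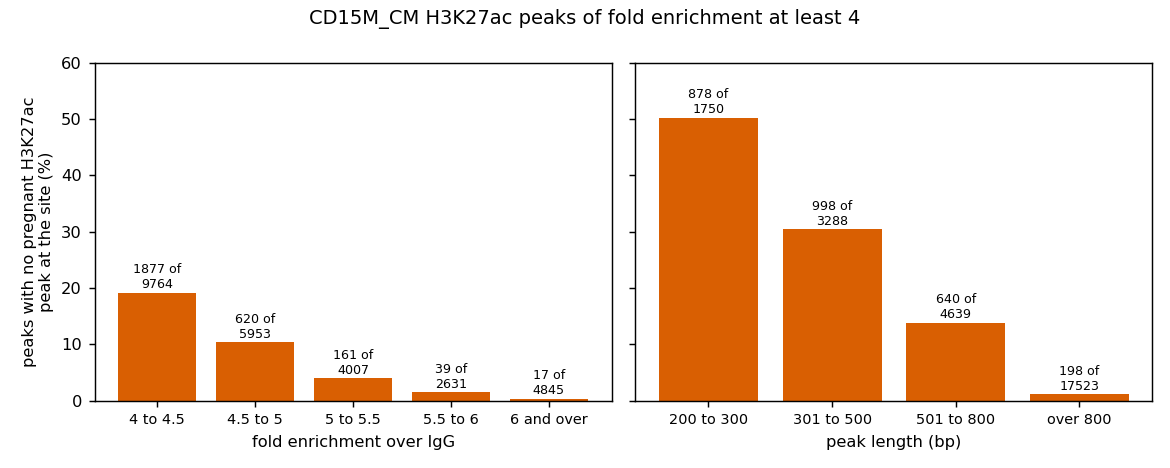
The bars give the share (%) of CD15M_CM H3K27ac peaks of fold enrichment at least 4 that overlapped no H3K27ac peak of GD15M_CM or GD15M_LM, by fold enrichment over IgG on the left and by peak length (bp) on the right, with the number of such regions and of all peaks above each bar. The share falls from 19.2% to 0.351% over the bins of fold enrichment and from 50.2% to 1.13% over those of length.

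The share also fell with the length of the peak. Of peaks of 200 to 300 bp, 50.2% were cyclic-only (878 of 1750), and of peaks over 800 bp, 1.13% (198 of 17523). Within the narrow range of fold enrichment from 4 to 4.5, the shares at these lengths were 54.3% and 2.58%. A long peak has more bases with which to meet another peak, so length and the mark itself cannot be told apart in these shares. The fold enrichments were not spread evenly either: 322 of the 2714 regions had the value 4.03138, and the 10 commonest values held 49.26% of them, against 9.936% of the shared peaks. The 6 commonest values, held by 1138 regions, were evenly spaced, with steps of 0.1687. Of the regions just inside the threshold, the 5 taken as examples all had 4.0005. Their nearest genes were HIGD1B, LOC100627451, C13H3orf70, DOK2 and LOC100739160. Others tied with them, such as the region in SHD, also with 4.0005. The 5 highest peaks below it that met the rule otherwise all had 3.9974, and the nearest gene of one of them was CRHR2.

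Many cyclic-only regions lay close to pregnant peaks. The median distance to the nearest H3K27ac peak of either pregnant list was 2442 bp, 865 regions (31.87%, interval 30.15 to 33.65) lay within 1 kb of one, and 1113 lay 1 to 10 kb away. Another 736 (27.12%) lay over 10 kb away, of which 183 were beyond 50 kb and 93 beyond 100 kb. The median fold enrichment was 4.27 within 1 kb, 4.24 from 1 to 10 kb and 4.35 beyond 10 kb. A peak of the cyclic list itself that was shared with a pregnant tissue lay within 1 kb of 26.75% of the regions.

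**Figure D2:**
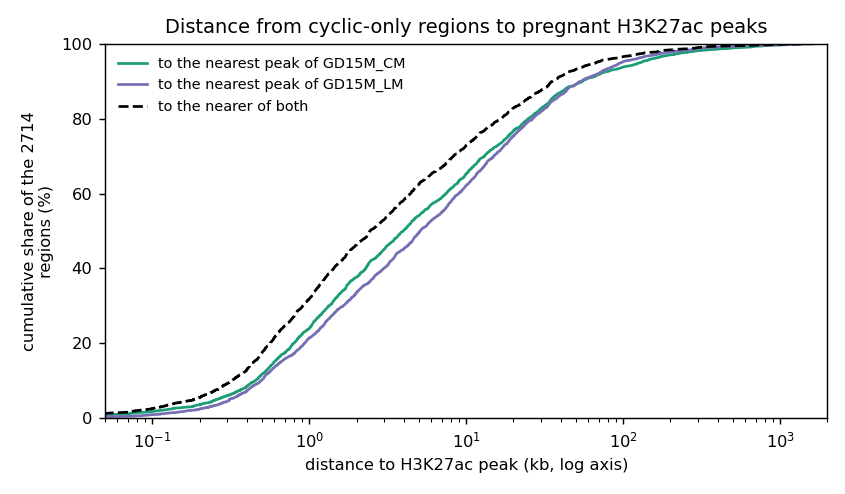
The lines give the cumulative share (%) of the 2714 cyclic-only regions against the distance in kb, on a log axis, to the nearest H3K27ac peak of GD15M_CM, of GD15M_LM and of either list. The line for either list passes 31.87% at 1 kb and 72.88% at 10 kb.

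Cyclic-only regions lay mainly in gene bodies and away from gene ends. RefSeq gene models were used without strand, so position is given from either end of a gene. Of the 2714 regions, 446 (16.4%, interval 15.09 to 17.87) were at most 3 kb from the end of a gene, against 45.1% of all CD15M_CM peaks of fold enrichment at least 4 and 48.3% of the shared ones. A further 1681 (61.9%) lay inside a gene and 587 (21.6%) outside genes, against 39.3% and 12.4% of the shared peaks. The share within 3 kb of a gene end was 21.0% in the 3577 H3K27ac peaks found by the same rule in GD15M_CM only and 17.3% in the 839 found in GD15M_LM only. Peaks of 1 tissue only thus resembled each other in position more than they resembled shared peaks, and they were also alike in length, with medians of 378, 437 and 353 bp. At a fixed length of 200 to 300 bp the difference from shared peaks was smaller, with 15.15% of cyclic-only and 24.43% of shared peaks near a gene end. Over 50 kb from any gene end lay 642 regions (23.7%).

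The regions were spread over all chromosomes. Their share among the peaks of fold enrichment at least 4 was lowest on the X chromosome, at 4.667% (14 of 300, interval 2.8 to 7.68), and on chromosome 12, at 6.161%. It was highest on chromosomes 16, 11 and 15, at 13.16%, 13.15% and 13.12%. The intervals of the last 3 overlapped each other.

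H3K4me3, which the selection did not use, overlapped few cyclic-only regions. An H3K4me3 peak of CD15M_CM overlapped 338 of them (12.5%, interval 11.26 to 13.75), one of GD15M_CM 214 (7.89%, interval 6.93 to 8.96) and one of GD15M_LM 288 (10.6%, interval 9.508 to 11.83). Over all CD15M_CM peaks of fold enrichment at least 4 these shares were 54.4%, 49.1% and 54.1%. No H3K4me3 peak of any tissue overlapped 2315 regions (85.3%), and H3K4me3 peaks of all 3 tissues overlapped 176 (6.485%). Near gene ends the shares were 44.84%, 32.06% and 38.12%, and inside genes 6.246%, 3.331% and 5.711%. Near gene ends too, the shares were thus below those of all peaks at any position. At 200 to 300 bp, 11.05% of cyclic-only and 24.43% of shared peaks overlapped H3K4me3 of CD15M_CM.

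**Figure D3:**
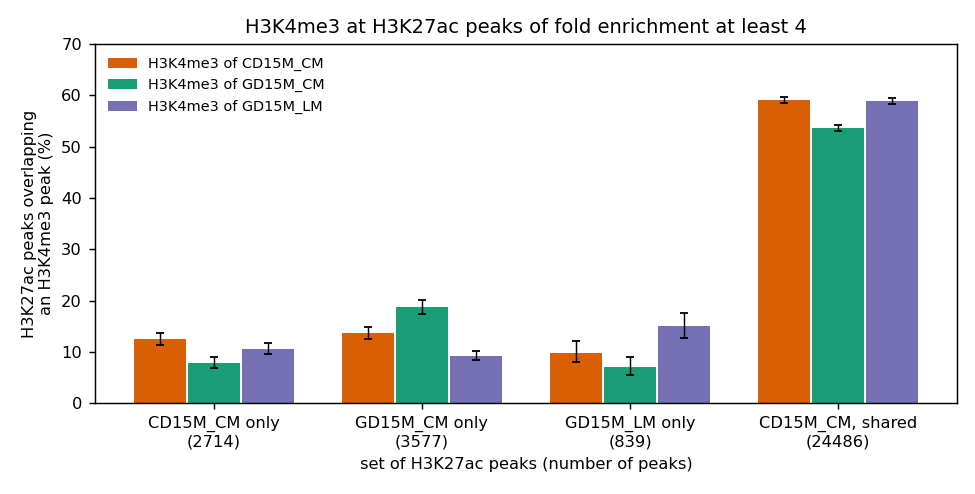
The bars give the share (%) of H3K27ac peaks of fold enrichment at least 4 that overlapped an H3K4me3 peak of CD15M_CM, GD15M_CM or GD15M_LM, for the peaks of each tissue only and for the shared CD15M_CM peaks, with the number of peaks in brackets and 95% Wilson intervals as error bars. The shares of the cyclic-only regions are 12.5%, 7.89% and 10.6%, and those of the shared peaks 59.0%, 53.7% and 59.0%.

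Where H3K4me3 differed between the circular muscles at a cyclic-only region, it was mostly the cyclic list that held the peak. H3K4me3 of CD15M_CM without H3K4me3 of GD15M_CM was found at 140 regions and the opposite at 16, a ratio of 8.75. The same direction was present in the shared H3K27ac peaks, with 1606 against 291, a ratio of 5.52, so a call in the cyclic list alone was the commoner kind in both sets. Between CD15M_CM and GD15M_LM the counts were 99 and 49 at cyclic-only regions, a ratio of 2.02, and 1022 and 1003 at shared peaks, a ratio of 1.02. In the peaks of GD15M_CM only the order was turned, with H3K4me3 of CD15M_CM alone at 80 and of GD15M_CM alone at 263. In the peaks of GD15M_LM only these counts were 25 and 1. The lean to the cyclic list over GD15M_CM was thus not particular to the cyclic-only regions. Each set of H3K27ac peaks found in 1 tissue overlapped H3K4me3 of its own tissue most often, with 18.7% for GD15M_CM only and 15.0% for GD15M_LM only.

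At 77 regions (2.84%) H3K4me3 was present in CD15M_CM and in neither pregnant tissue. The 5 of highest fold enrichment lay nearest to LOC106506151, GRSF1, HIVEP2, RBFOX1 and CDC14A, and their H3K27ac values were 6.06, 5.43, 5.38, 5.38 and 5.26. The region nearest to LOC106506151 had H3K4me3 of fold enrichment 4.45 in CD15M_CM, and its nearest pregnant H3K4me3 peaks lay 330 kb away in GD15M_LM and 415 kb away in GD15M_CM. GRSF1, an RNA-binding protein of mitochondria, had its region 4.5 kb from the gene end, with H3K4me3 of 4.40 in CD15M_CM and pregnant H3K4me3 peaks less than 2 kb away. These 5 H3K4me3 peaks, of fold enrichment 3.02 to 4.45, were all below the median of 4.638 for H3K4me3 peaks in CD15M_CM.

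The highest cyclic-only regions differed in their surroundings. The region of highest fold enrichment, 7.07, lay at chr9:120178685-120179001 inside RASAL2, which encodes a GTPase-activating protein for Ras, 148 kb from a gene end. It overlapped H3K4me3 peaks of all 3 tissues, of fold enrichment 13.1 in CD15M_CM, 9.77 in GD15M_CM and 15.3 in GD15M_LM, and pregnant H3K27ac peaks lay 503 and 548 bp away. So at RASAL2 the H3K27ac call differed and the H3K4me3 call did not. C1QTNF3, which encodes a secreted protein of the C1q and TNF-related family, had a region of 6.38 across its gene end at chr16:20058926-20060015. There H3K4me3 was 6.86 in CD15M_CM and 4.05 in GD15M_LM, with none in GD15M_CM, and the nearest pregnant H3K27ac peaks were 34.9 and 35.3 kb away. FGF12, which encodes an intracellular fibroblast growth factor homologue that binds sodium channels, showed the same arrangement: a region of 6.14 lay 116 bp from a gene end, with H3K4me3 of 9.26 in CD15M_CM, none in GD15M_CM and 10.9 in GD15M_LM. At both sites GD15M_LM had an H3K4me3 peak and no H3K27ac peak.

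Other high regions lay away from H3K4me3. In PARD3B, a gene of cell polarity, a region of 6.39 at chr15:108497256-108498256 lay 415 kb from a gene end, 474 kb from the nearest H3K27ac peak of GD15M_CM and 343 kb from that of GD15M_LM, with no H3K4me3. The regions nearest to LOC110260686, ADTRP, MAST4, ADGRV1, SLC44A1, RXFP2 and FBXO43, at 6.22 to 6.42, also overlapped no H3K4me3. RXFP2 encodes the receptor of the relaxin-family hormone INSL3 and SLC44A1 a choline transporter, and their regions lay 29.7 and 89.4 kb from the genes. Pregnant H3K27ac peaks could be near: one of GD15M_LM lay 933 bp from the region nearest to RXFP2, with 5.72, and another 343 bp from that nearest to ADTRP, with 3.81. The highest −log10 p, 17.1, belonged to a region of 5.78 at a gene end of LOC100623270, with H3K4me3 of 9.78, 4.27 and 6.11 in CD15M_CM, GD15M_CM and GD15M_LM. Of the 5 regions of highest −log10 p, the one that overlapped no H3K4me3, with 13.3, lay in LOC110262233.

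Some regions formed runs. With gaps of at most 10 kb, 390 regions (14.4%, interval 13.1 to 15.74) fell into 184 runs, of which 18 held 3 regions or more and none over 4. The share was 31.56% for the peaks of GD15M_CM only and 9.654% for those of GD15M_LM only, sets of 3577 and 839 peaks, so the share of the cyclic-only regions lay between those of a larger and a smaller set. With gaps of at most 50 kb, 914 regions (33.68%) fell into 385 runs, the largest of 10.

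That run lay at RBFOX2, which encodes a regulator of alternative splicing in muscle and other tissues. It stretched over 117.6 kb on chromosome 5, from 11587825 to 11705444, and its 10 regions had fold enrichments of 4.00 to 5.38 and overlapped no H3K4me3. The runs at gaps of 10 kb included 2 of 4 regions in RBFOX2. The regions stood between peaks shared by the tissues, 72 bp to 4287 bp from the nearest H3K27ac peak of GD15M_CM. In RBFOX2 as a whole, with 3 kb added at each end, 14 regions were cyclic-only, 4 peaks were of GD15M_CM only and 0 of GD15M_LM only. All H3K27ac peaks there numbered 62 in CD15M_CM, 55 in GD15M_CM and 31 in GD15M_LM, and covered 53962, 39053 and 27361 bp, with highest values of 8.04, 6.94 and 6.17.

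**Figure D4:**
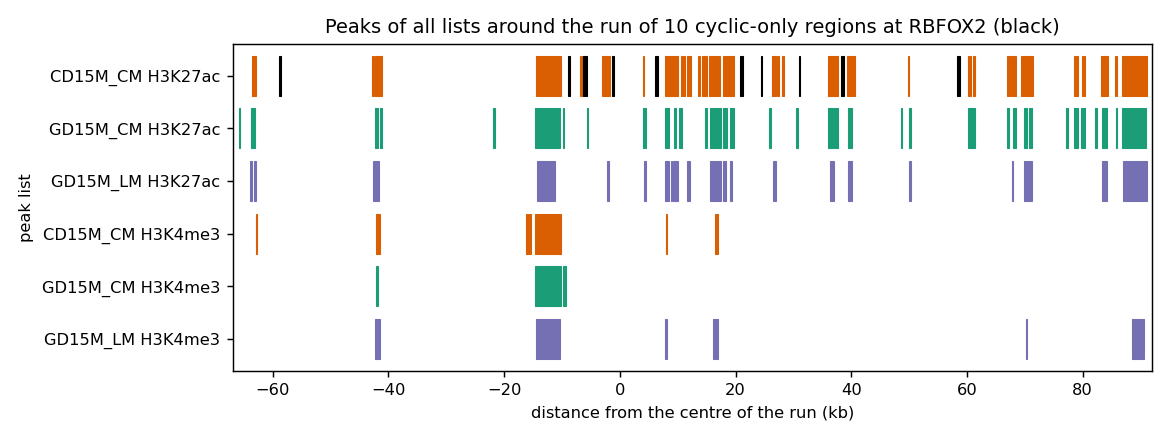
The rectangles are the peaks of the 6 lists around the run at RBFOX2, with the distance from the centre of the run in kb on the horizontal axis and 1 row per list, and the 10 cyclic-only regions are black. The black regions lie between H3K27ac peaks found in all 3 tissues, and no H3K4me3 peak overlaps them.

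Other large runs lay in genes of varied function. In RERG, which encodes a Ras-like protein regulated by estrogen, 4 regions of 4.03 to 4.54 stood within 9.917 kb, and the whole gene held 5 cyclic-only regions and 0 of either pregnant tissue only. In NARS2, the asparaginyl-tRNA synthetase of mitochondria, 4 regions of 4.20 to 4.54 stood within 9.649 kb, a stretch without any H3K27ac peak of GD15M_CM or GD15M_LM. In ADGRV1, an adhesion G protein-coupled receptor, 3 regions of 4.20 to 6.25 stood within 8.249 kb. At gaps of 50 kb, FOXP1 had 6 regions in 108.9 kb and PDZRN3 had 6 in 47.55 kb.

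The regions were nearest to 2092 genes, of which 1650 were nearest to 1 region, 291 to 2 and 151 to 3 or more. Of 19484 protein-coding genes, 1489 had a cyclic-only region in the gene or within 3 kb, which is 7.64%. This was 1.75% of genes up to 20 kb and 29.1% of genes over 200 kb, so a long gene had one more often. The corresponding shares of genes of all lengths were 8.79% for GD15M_CM only and 2.41% for GD15M_LM only.

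Among the genes nearest to most regions, the protein-coding ones named here were all long. LOC106506519, a non-coding RNA gene of 4.7 kb, was also nearest to 6 regions. RBFOX2 had 14. SYNE1, which encodes the nuclear envelope protein nesprin, FOXP1, a forkhead repressor, and MAST4, a microtubule-associated kinase, had 7 each. PDZRN3, a ubiquitin ligase, C10H9orf3, DST, the cytoskeletal linker dystonin, AKAP6, which anchors protein kinase A in muscle, and ADGRV1 had 6 each. DST and AKAP6 had 0 peaks of GD15M_CM only and 0 of GD15M_LM only, and SYNE1 and FOXP1 had 4 of GD15M_CM only each. In DST the H3K27ac peaks numbered 50, 29 and 26 in CD15M_CM, GD15M_CM and GD15M_LM, and in AKAP6 27, 18 and 16.

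Most genes with a cyclic-only region also had H3K27ac peaks in pregnancy. Of the 1489 genes, 44 (2.955%) had no H3K27ac peak of either pregnant tissue in the gene or within 3 kb. By the same count 48 of 1712 genes with a peak of GD15M_CM only and 27 of 469 with one of GD15M_LM only lacked a peak in the other lists. Of the 44 genes, 27 had an H3K4me3 peak in CD15M_CM, 22 in GD15M_CM and 24 in GD15M_LM. Those of highest fold enrichment, named after their values were seen, were C1QTNF3, TMPO with 5.92, EPHA3 with 5.26, LOC397451 with 5.26, and NMU and PDCL2, which shared 1 region of 5.21. NMU encodes neuromedin U, a peptide that contracts smooth muscle, and EPHA3 an ephrin receptor. At EPHA3 the highest H3K4me3 peak was 16.3 in CD15M_CM, 6.32 in GD15M_CM and 8.98 in GD15M_LM. TMPO did not share this order, with 14.5, 14.8 and 15.8. At NMU and PDCL2 the value was 12.1 in CD15M_CM and 12.4 in GD15M_CM, with no peak in GD15M_LM. Also among the 44 were RLN2, a gene of relaxin, with 4.64, RGS5, a regulator of G protein signalling typical of mural cells, with 4.24, and the leptin receptor gene LEPR with 4.30.

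Gene lists were described by counts of genes with a cyclic-only region in the gene or within 3 kb, beside 7.64% of all protein-coding genes. The lists were not tested, and since gene length moves with the counts, each is set beside the peaks of GD15M_CM only and GD15M_LM only in the same genes. These mirrored sets share the 3 peak lists and are not independent of each other. Fold enrichments of different lists are set side by side below and are not on a common scale.

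Genes of the extracellular matrix differed between the circular muscles in this count. Of 38 placed genes with a median length of 75.56 kb, 13 had a cyclic-only region, 1 a peak of GD15M_CM only and 7 a peak of GD15M_LM only, although the set of GD15M_CM only was the largest of the 3. COL3A1, the chain of type III collagen, had 2 regions, of 4.37 and 5.72, the higher at chr15:93559280-93559510. Both overlapped H3K4me3 of all 3 tissues, of 20.7, 14.1 and 29.6 in CD15M_CM, GD15M_CM and GD15M_LM, and lay 1.15 to 1.4 kb from pregnant H3K27ac peaks. Over COL3A1 with 3 kb added at each end, the highest H3K27ac peak was 5.72 in CD15M_CM, 3.97 in GD15M_CM and 4.72 in GD15M_LM. LUM, which encodes the collagen-binding proteoglycan lumican, had a single region of 4.20 at chr5:91748781-91749025 on its gene end and no H3K27ac peak in either pregnant tissue, the nearest being 23.5 and 23.8 kb away. H3K4me3 overlapped the region of LUM in all 3 tissues, with 12.7, 6.44 and 13.9. DCN, the related proteoglycan decorin, had a region of 4.37 with H3K4me3 in all 3 tissues, and its highest H3K27ac peaks were 6.90, 5.12 and 7.04. LAMC1, a laminin chain, had a region of 4.84 that lay 149 bp beyond a gene end. The other genes were COL1A2 with 2 regions, COL6A3, COL12A1, COL14A1, TIMP3, LAMA2, NID1, NID2 and ADAMTS9. Their highest regions were between 4.01 and 4.70.

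COL3A1 was the only one of these genes with a cyclic-only region of fold enrichment 5 or more, so at a threshold of 5 the counts were 1 and 0. DCN, LUM and COL1A2 were the 3 of 6 fibroblast and stroma markers with a cyclic-only region, and 0 of 6 had a peak of either pregnant tissue only. Both lists hold these genes, so the marker count is not separate from the extracellular matrix count. COL1A1, also in both lists, and PDGFRA and THY1, in the marker list alone, had no cyclic-only region. In CD15M_CM, GD15M_CM and GD15M_LM the highest H3K27ac peak was 3.27, 3.62 and 3.72 for PDGFRA and 4.74, 3.72 and 3.51 for THY1. The highest H3K27ac peak over these 6 genes ranged from 3.27 to 7.35 with a median of 4.93 in CD15M_CM, from 0 to 6.81 with a median of 4.42 in GD15M_CM, and from 0 to 7.36 with a median of 4.83 in GD15M_LM, the 0 in both being LUM. The part of fibroblasts in the result was not tested.

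**Figure D5:**
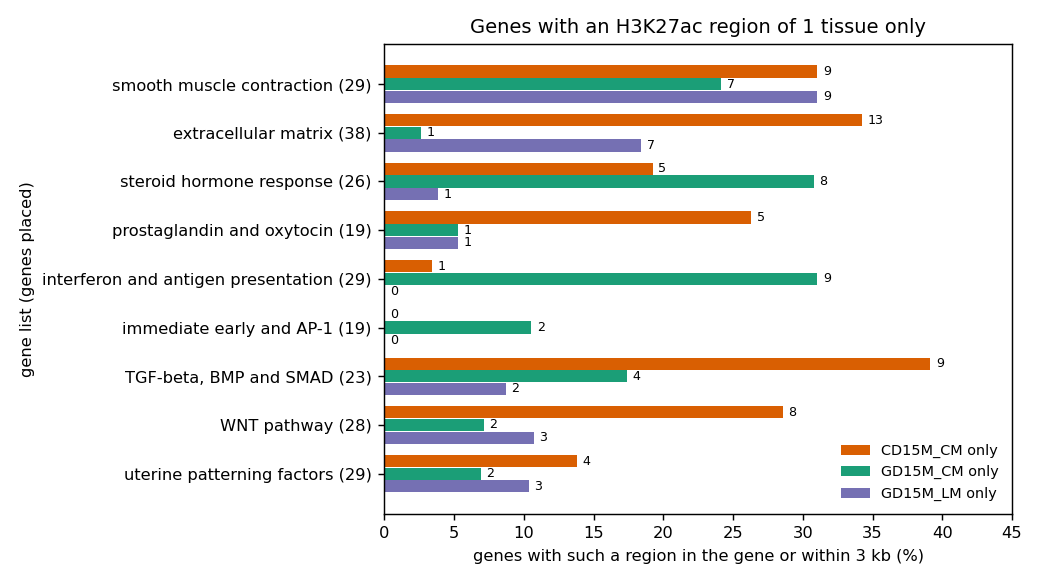
The bars give the share (%) of the placed genes of each list that had, in the gene or within 3 kb, an H3K27ac peak of fold enrichment at least 4 found in CD15M_CM only, GD15M_CM only or GD15M_LM only, with the number of genes at each bar. Extracellular matrix genes number 13, 1 and 7, and interferon and antigen presentation genes 1, 9 and 0.

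Genes of smooth muscle contraction did not stand apart in this way. Of 29 genes, 9 had a cyclic-only region, 7 a peak of GD15M_CM only and 9 a peak of GD15M_LM only. SYNPO2, an actin-binding protein of smooth muscle, had 3 regions, the highest of 5.55, and PPP1R12A, the targeting subunit of myosin phosphatase, had 3, of 4.54, 5.38 and 4.03. KCNMA1, the large-conductance calcium-activated potassium channel, had 3 cyclic-only regions, the highest of 5.10, and 5 peaks of GD15M_CM only. ROCK2, a kinase that inhibits myosin phosphatase, had 1 region of 4.37, and its highest H3K27ac peak was 4.37 in CD15M_CM, 7.31 in GD15M_CM and 7.04 in GD15M_LM. The others were MYH11, MYLK, CALD1, CACNA1C and ITPR1. All 29 genes had an H3K27ac peak of at least 4 in CD15M_CM and in GD15M_LM, and 27 had one in GD15M_CM.

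Prostaglandin receptors were found on both sides. Of 19 genes of prostaglandin and oxytocin pathways, 5 had one, 1 had a peak of GD15M_CM only and 1 had peaks of GD15M_LM only. The first was PTGER2, a receptor of prostaglandin E2, whose highest H3K27ac peak was 4.41 in CD15M_CM and 4.93 in GD15M_CM, and the second was PTGER3, which had 2 peaks of GD15M_LM only beside its cyclic-only regions. PTGFR, the receptor of prostaglandin F2α, had regions of 4.03 and 4.20, both 7.33 to 7.93 kb from pregnant peaks. The highest H3K27ac peak over PTGFR was 6.22 in CD15M_CM, 3.78 in GD15M_CM and 5.12 in GD15M_LM. PTGER3, another receptor of prostaglandin E2, had 3 cyclic-only regions, of 4.44, 5.04 and 4.03, lying 5.92 to 17.2 kb from peaks of GD15M_CM and 0.566 to 2.06 kb from peaks of GD15M_LM. Its highest peak was 5.21, 4.02 and 9.48 in CD15M_CM, GD15M_CM and GD15M_LM. At PTGFR and PTGER3 the value was lowest in GD15M_CM. So was the median of the highest peak over the 19 genes, at 4.216, 3.925 and 5.122 in CD15M_CM, GD15M_CM and GD15M_LM. The lowest place of GD15M_CM was thus not particular to these receptors, and the lists are not on a common scale. None of the 5 regions of PTGFR and PTGER3 overlapped H3K4me3. PTGIS, the prostacyclin synthase, PTGES3 and AKR1B1 also had regions. Over these genes the highest peak was 5.12, 8.61 and 7.37 in GD15M_CM and 4.29, 7.02 and 4.57 in CD15M_CM.

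Signalling genes of the TGF-beta and WNT families had more cyclic-only regions than peaks of GD15M_CM only, by smaller counts. In the list of TGF-beta, BMP and SMAD genes, 9 of 23 had a cyclic-only region, 4 a peak of GD15M_CM only and 2 a peak of GD15M_LM only. TGFBR3, the co-receptor betaglycan, had 4 regions, the highest of 4.89, and no peak of either pregnant tissue only. ACVR1, a type I receptor, had 1 region of 4.88 and 3 peaks of GD15M_CM only, and BMPR1A, another, had 1 region of 4.60. SMAD1 had 2 cyclic-only regions and 4 peaks of GD15M_CM only. None of the 9 genes had a cyclic-only region of 5 or more, and at that threshold the counts were 0 and 1.

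In the WNT list 8 of 28 genes had a cyclic-only region, 2 a peak of GD15M_CM only and 3 a peak of GD15M_LM only. WNT4, a ligand of uterine development and function, had 1 region of 4.17 at chr6:80107565-80108348, 1890 bp outside the gene. No H3K27ac peak of either pregnant tissue lay in the gene or within 3 kb. Pregnant H3K27ac peaks were nevertheless close to the region, at 1.8 kb in GD15M_CM and 2.08 kb in GD15M_LM. The highest H3K4me3 peak over WNT4 was 6.79, 5.98 and 5.13 in CD15M_CM, GD15M_CM and GD15M_LM. TCF7L2, a transcription factor of the pathway, had 3 regions, the highest of 5.21. LEF1, its relative, had 1 region of 4.94 and 3 peaks of GD15M_CM only, and the receptor FZD8 had 1 of 4.66 with H3K4me3 of all 3 tissues. WNT11 had 1 region of 4.35, and its highest H3K27ac peak was 5.01, 3.53 and 4.69 in CD15M_CM, GD15M_CM and GD15M_LM. At a threshold of 5 the counts for CD15M_CM and GD15M_CM were 1 and 1.

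Interferon and antigen presentation genes went the other way. Of 29 placed genes, short ones with a median length of 14.24 kb, 1 had a cyclic-only region, 9 a peak of GD15M_CM only and 0 a peak of GD15M_LM only. The gene with the cyclic-only region was JAK1, the kinase of interferon receptors, with 1 of 4.03. Its highest H3K27ac peak was 4.52 in CD15M_CM and 7.18 in GD15M_CM. Of immediate early and AP-1 genes, 0 of 19 had a cyclic-only region and 2 a peak of GD15M_CM only. These genes are short too, with a median of 5.324 kb.

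Steroid hormone response and patterning genes had small counts, in opposite order between the circular muscles. No alternative settings were computed for these lists. Of 26 steroid hormone response genes, 5 had a cyclic-only region, 8 a peak of GD15M_CM only and 1 a peak of GD15M_LM only. The 5 genes were 19.23% of a list with a median length of 101.5 kb. Of all protein-coding genes of 100 to 200 kb, 22.61% had a cyclic-only region. Among the 5 were NR3C2, the mineralocorticoid receptor, with 4.10, and the coregulators NCOA1, NCOA2 and NRIP1. The region of NR3C2 lay over 100 kb from any pregnant H3K27ac peak, at 176370 and 248560 bp. Of 29 patterning factors, with a median length of 9.85 kb, 4 had a cyclic-only region, 2 a peak of GD15M_CM only and 3 a peak of GD15M_LM only. Among the 4 was MEIS1, a homeobox factor, with 2 regions, the highest of 4.88. Another was HOXA13 with 1 of 4.52 on its gene end, where H3K4me3 was present in all 3 tissues. MEIS1 and HOXA13 each also had 1 peak of GD15M_LM only.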

How the data were processed

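The H3K4me3 and H3K27ac libraries of GD15M_CM, GD15M_LM and CD15M_CM (n = 2 gilts each) and their IgG controls were used as peak lists, grouped by the study's labels. The authors mapped reads to Sus scrofa 11.1 with BWA 0.7.17-r1188, removed duplicates and reads of MAPQ below 25 with SAMtools 1.9 and Picard 2.8.3, pooled the replicates and called peaks with MACS2 2.2.6. Names and versions of tools are also those of the submitters' processing notes. The deposited fold enrichment is the ratio that the study's supplement heads as mark over IgG. The call's control setting is not given in the sources used here, and evenly spaced values were frequent. The deposited −log10 p has an unreadable column name and was recognised from its place before the fold enrichment and from a supplementary peak table with the same values. The unreadable column after the fold enrichment was not used. How a peak's reads were scaled is not given in the sources used here, so values were compared within a list and set side by side between lists.

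Peaks on chromosomes 1 to 18 and X were compared by overlap of at least 1 bp and by distance, and positions were set against the RefSeq gene table of assembly Sscrofa11.1, which was used without strand. The planned promoter window was therefore replaced by 3 kb around either gene end. Of 2 RefSeq entries named B2M, the one with gene ID 397033 was counted, and a cyclic-only region lay at the other. Sequences and motifs of the regions were not analysed here.

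The members and gene lists were chosen with earlier results of these data known, and no list was tested. Genes named in the text are those of the 10 regions of highest fold enrichment, the 5 of highest −log10 p, the largest runs, the 10 genes nearest to most regions, list genes, the 5 highest regions with H3K4me3 of CD15M_CM only, and the regions next to the threshold, with exceptions stated. Some genes that this rule names are not reported here. Shares have 95% Wilson intervals, which cover counting error only. The pooled lists give no replicate error and no depth. Alternatives to the threshold, overlap, merging, windows and gaps were computed. Python 3.11.15, pandas 2.3.3, NumPy 2.4.6, SciPy 1.17.1 and Matplotlib 3.10.9 were used, and the overlap and distance steps were tested on simulated data.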

Additional observations from a re-analysis of the deposited data

Results flagged for a closer look

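On unplaced scaffolds, outside the chromosomes 1 to 18 and X that the comparisons used, 22 H3K27ac peaks of CD15M_CM met the same rule, out of 306 peaks of fold enrichment at least 4 there (7.19%). They lay on 10 scaffolds, with at most 8 on 1, and the highest had a fold enrichment of 5.044. They drew attention because they are signal in data that no comparison used.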

How the results depend on the processing

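The number of cyclic-only regions rested on the threshold: it was 12903 at a fold enrichment of at least 3, 217 at 5, 78 with −log10 p of at least 10, and 4389 when only a cover of 50% by pregnant peaks excluded a peak. It was 1849, 3449 and 1891 when a pregnant peak within 1 kb excluded, with the 56172 best peaks of each list, and with peaks under 1 kb apart merged. The share near a gene end was 6.19% with a window of 1 kb, 12.6% with protein-coding genes only and 19.35% at a fold enrichment of at least 5. The share in runs was 10.8% with gaps of 5 kb and 33.68% with 50 kb. Overlap with H3K4me3 of CD15M_CM, GD15M_CM and GD15M_LM was 11.09%, 6.706% and 9.359% when 50% of the region had to be covered, 16.1%, 11.39% and 15.29% within 1 kb, 9.948%, 5.711% and 8.622% with H3K4me3 peaks of at least 4, and 20.74%, 12.9% and 16.59% for regions of at least 5. With the 31290 best H3K4me3 peaks of each list it was 11.79%, 7.59% and 10.61%, and in all of these settings the order of the tissues was the same.

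The following settings for gene lists were chosen after seeing the data and give the number of genes with a cyclic-only region minus those with a peak of GD15M_CM only. For the extracellular matrix it was 12 and stayed between 9 and 17, except for 1 at a fold enrichment of 5 and 0 with −log10 p of at least 10. For TGF-beta, BMP and SMAD it was 5, with 3 at a fold enrichment of 3, -1 at 5, 0 with −log10 p of at least 10, 3 with no pregnant peak within 1 kb, 2 at a cover of 50% and 1 with merged peaks. For WNT it was 6, and in the same order 10, 0, 0 and 3, with 2 for merged peaks. For interferon and antigen presentation it was -8, with -17 at 3, -5 at 5, -5 with −log10 p of at least 10, -2 with no peak of another tissue within 1 kb and -2 with merged peaks. Each setting also leaves a smaller or larger number of regions, and the cause of these shifts was not tested. No paired analysis was possible because the peak lists used here were called on pooled replicates, and for the same reason leaving out a replicate could not be run on them.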
